A study of Mus musculus with 8 samples.

Results

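Actin remodelling and motility genes encode the proteins that build, cut, cross-link, anchor and pull on actin filaments, and 49 of them were followed in macrophages sorted from mouse mammary tumours. The members were named by gene, in 5 classes by role, and each was read from probe sets annotated with that symbol alone, taking the one with the highest mean signal. Of the 49 genes, 44 had such a probe set, out of 18193 genes measured in this way. Pak1, Rock2, Arpc1b, Arpc3 and Actr2 were not analysed here. The formin gene Fmnl1 was measured but lay under the filter on mean signal (log2 5.998), which left 43 members among 10916 genes tested.

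Cells move by polymerising actin at the front, attaching the new filaments to the substrate through integrins, and pulling the rear forward with myosin. Small GTPases start these steps: Cdc42 and Rac act through WASP and WAVE proteins on the Arp2/3 complex, which makes branched filaments, and Rhoa acts through formins and the kinase Rock1 on straight filaments and contraction. Macrophages use the same machinery for ruffles, for podosomes (the adhesive actin dots of myeloid cells), for phagocytosis and for migration through tumours.

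The cells were F4/80+ tumour-associated macrophages sorted by FACS from mammary tumours of 80-day-old FVB mice carrying PyMT, a polyomavirus oncogene that drives tumours of the mammary gland. Control mice had the genotype PyMT;E2f3 f/f, in which E2f3 carries floxed alleles and no Cre is named (4 arrays, replicates B, C, D and G). E2f3-deleted mice had the genotype PyMT;Lys Cre;E2f3 f/f, in which a Cre named for the lysozyme gene, active in myeloid cells, recombines the same alleles (4 arrays, replicates A, E, F and H). Floxed E2f3 and PyMT were thus common to both groups, and no group carried Cre without floxed E2f3, so loss of E2f3 and presence of Cre cannot be told apart. Nothing in the labels says whether the arrays came from separate animals, and p-values here measure only the spread between these samples.

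Values are deposited log2 signals of Affymetrix arrays, so a difference of 1 is a doubling of signal, and every difference given is E2f3-deleted minus control. Signals of different probe sets cannot be set against each other, so levels are compared only within a gene. Where a gene is said to have the highest array signal of its class, this is how it was chosen for display and not a ranking of transcript amounts. Array medians lay between 5.65 and 5.69, and E2f3-deleted replicate H stood apart, with a mean correlation of 0.949 with its own group where the other E2f3-deleted arrays had 0.972 to 0.976 and controls had 0.985 to 0.989. The scan files named in the descriptions carry other letters than the titles. Groups were taken from titles and genotypes. By scan letter, replicate B of the controls and replicate F of the E2f3-deleted samples would change groups, so counts are also given without these arrays. The brighter E2f3 probe set read 7.67 ± 0.109 in controls and 7.63 ± 0.123 in E2f3-deleted samples (SD, n = 4 each), and since no label names the deleted exons, this does not check the groups. The 11 measured macrophage markers had median signals of 12.78 to 12.97 on control arrays and 12.62 to 12.77 on E2f3-deleted arrays.

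In E2f3-deleted macrophages the actin genes lay on both sides of the control level, and no single gene passed the test. A group of 5 of the 43 tested had higher signal on every E2f3-deleted array than on any control array: Enah, Cttn, Rhoc, Tpm1 and Wasl, with differences from 0.32 to 1.05. Of all 10916 genes tested, 465 had this pattern. Tln1, which encodes talin, the link from integrins to actin, was lower on every E2f3-deleted array than on any control array, by a difference of −0.27. So were 461 of all genes tested. Among genes of actin turnover at the leading edge, the probe sets used for Cfl1, Cdc42, Arpc2, Arpc5 and Actr3 differed by −0.10 to −0.003. Their signals lay near the top of the scale, where differences can be compressed, which was not tested here. Dimmer probe sets above the filter differed by −0.29 for Cfl1, −0.23 for Arpc2 (near the filter), and 0.02 and 0.02 for Actr3. Those of Cdc42 differed by 0.01, −0.18 and −0.08. Pfn1, which supplies actin monomers, differed by −0.36.

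With limma, 0 of the 43 members had an adjusted p under 0.05, as did 0 of all genes tested (0%), and the smallest adjusted p among members was 0.218. An unadjusted p under 0.05 was found for 11 members (25.6%), against 14.2% of all genes tested. Of these, 5 were higher (11.6% of members, against 7.27% of all genes) and 6 lower (14.0%, against 6.9%). Groups did not overlap for 6 members (14.0%, against 8.48% of all genes). Differences below 0 were found for 29 members (67.4%, against 58.7%). The median difference was −0.08 for members and −0.03 for all genes, and the median size without regard to sign was 0.155 for members and 0.0976 for all genes. Centring each array on the median of the 18193 genes instead subtracts 0.101 from every difference, since that median averaged 6.92 on control and 7.02 on E2f3-deleted arrays. Over all 45101 probe sets the array medians differed by only 0.0104. With the first centring the share of all genes below 0 became 79.2%, the median of all genes −0.13, and the members counted 32 below 0, among them Actn1, Myh9 and Rock1, whose differences lay between 0 and 0.101. Repeated quantile normalization put Cdc42 at 0.00131.

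These counts depended on single arrays. Without control replicate B there were 6 members at an unadjusted p under 0.05 (14.0%, against 9.24% of all genes), without control replicate C 7 (16.3%, against 11.1%), and without E2f3-deleted replicate E 17 (39.5%, against 17.0%). Cttn, Enah, Rhoc, Tln1, Tpm1 and Wasl were at that level in each of the 8 fits that left out 1 array. Without both arrays of conflicting letters 5 members were at that level (11.6%, against 8.61% of all genes): Enah, Rac2, Tln1, Tpm1 and Wasl. With arrays grouped by scan letter there was 1, Myo1e (2.33%, against 4.11%), and no member's groups were separate, against 2.41% of all genes.

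**Figure D1:**
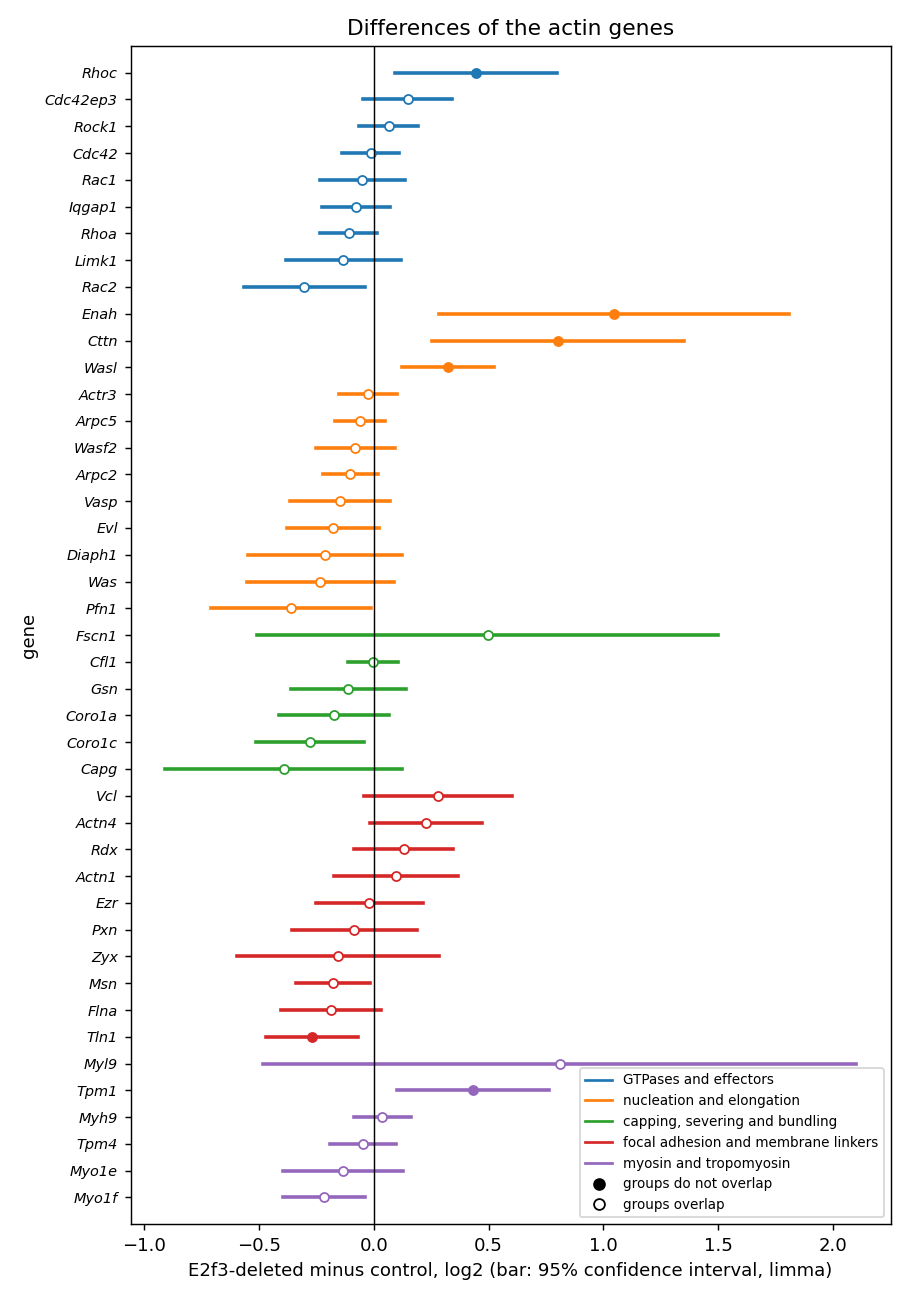
Difference of each of the 43 tested members (E2f3-deleted minus control, log2 signal) with its 95% confidence interval from limma, coloured by class. Filled points mark the 6 genes whose 4 values per group did not overlap. Enah (1.05) has the highest difference, and Myl9 (0.81) has the widest interval, which spans 0.

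The upstream sequences of 5 of the 6 separated genes are shown so that the letters next to their start sites can be read beside the values; Cttn is not shown. They are the 250 bases before the start site in RefSeq (GRCm38.p6), on the gene's own strand, 5′ to 3′. For a gene with several start sites, the first whose window held a GC box was used, so a match there could follow from this choice. Capitals mark the GC box GGGCGG, searched on both strands, a short motif bound by Sp1 family factors and common in promoters without a TATA box.
Rhoc (chr3:104788784-104789033, + strand): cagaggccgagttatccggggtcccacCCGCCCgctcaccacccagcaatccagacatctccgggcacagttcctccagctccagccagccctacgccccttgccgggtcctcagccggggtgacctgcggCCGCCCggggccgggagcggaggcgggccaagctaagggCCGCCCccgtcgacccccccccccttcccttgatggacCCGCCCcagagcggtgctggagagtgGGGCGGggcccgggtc
Wasl (chr6:24664996-24665245, − strand): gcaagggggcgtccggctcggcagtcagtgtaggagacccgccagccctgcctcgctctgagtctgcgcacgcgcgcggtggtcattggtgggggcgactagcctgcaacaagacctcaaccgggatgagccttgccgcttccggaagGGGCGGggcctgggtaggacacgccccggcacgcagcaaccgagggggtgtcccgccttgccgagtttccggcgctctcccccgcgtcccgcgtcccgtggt
Enah (chr1:182019981-182020230, − strand): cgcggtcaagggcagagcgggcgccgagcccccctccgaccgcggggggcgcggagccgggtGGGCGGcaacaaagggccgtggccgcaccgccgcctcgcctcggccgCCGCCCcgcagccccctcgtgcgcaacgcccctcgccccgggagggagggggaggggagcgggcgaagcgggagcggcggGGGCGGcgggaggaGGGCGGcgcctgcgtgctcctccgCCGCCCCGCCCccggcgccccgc
Tpm1 (chr9:67049214-67049463, − strand): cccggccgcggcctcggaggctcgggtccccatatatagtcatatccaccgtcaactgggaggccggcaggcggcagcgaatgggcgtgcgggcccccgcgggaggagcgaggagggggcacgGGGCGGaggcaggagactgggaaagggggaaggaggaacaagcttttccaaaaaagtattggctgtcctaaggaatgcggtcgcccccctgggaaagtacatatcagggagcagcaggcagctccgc
Tln1 (chr4:43562584-43562833, − strand): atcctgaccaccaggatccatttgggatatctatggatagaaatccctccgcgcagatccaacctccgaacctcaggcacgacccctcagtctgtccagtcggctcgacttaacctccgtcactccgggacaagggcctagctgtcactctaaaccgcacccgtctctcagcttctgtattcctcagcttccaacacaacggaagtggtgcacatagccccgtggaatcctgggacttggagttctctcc
Upstream of Enah 6 GC boxes were found and upstream of Rhoc 5, while Wasl and Tpm1 had 1 each in the stretch shown and Tln1 had 0. A pair of the Enah matches share a base. Counting back from the start site, the nearest match began at −16 in Rhoc, −18 in Enah, −102 in Wasl and −127 in Tpm1. In windows of 300 bases, which reach 50 bases past the start, 31 of the 37 members with a window held a GC box, and 77.3% of their 44 windows did, against 35.7% of 32851 windows of all genes. An E2F site, searched as TTTCCCGC, TTTCGCGC, TTTGCCGC or TTTGGCGC on both strands, was in 0 of the 44 windows and in 2.26% of all windows. The member windows were of tested genes, while the 32851 windows were not limited to tested genes, so these shares are of unlike sets. A match describes letters only, and no match says only that these letters are not in the window.

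Among GTPases and their effectors, 9 genes were tested, with a median difference of −0.05, and 2 of them (22.2%, against 14.2% of all genes) were at an unadjusted p under 0.05, Rhoc higher and Rac2 lower. Rhoc encodes a small GTPase tied to cell motility. Its log2 signals were 10.40, 10.84, 10.95 and 10.66 on control replicates B, C, D and G, and 11.06, 10.96, 11.10 and 11.51 on replicates A, E, F and H of the E2f3-deleted group. Control D and E2f3-deleted E lay next to each other, and no values overlapped. The difference was 0.45 (SE 0.153, 95% interval 0.10 to 0.80, a 1.36-fold ratio, limma adjusted p = 0.278). A dimmer probe set differed by 0.41, with overlap.

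Rac2 encodes the Rac of blood cells, which drives the NADPH oxidase and leukocyte movement. In the same order of replicates it read 12.04, 12.01, 11.77 and 11.90 in controls and 11.52, 11.73, 11.87 and 11.39 in E2f3-deleted macrophages. Replicates A, E and H lay under every control, and replicate F lay among them. The difference was −0.30 (SE 0.115, interval −0.57 to −0.04, limma adjusted p = 0.306). The widely expressed Rac1 differed by −0.05, with an interval from −0.24 to 0.14.

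Cdc42, the GTPase of filopodia and polarity, had the highest array signal of the class. Controls read 13.03, 12.98, 12.93 and 12.93 and E2f3-deleted samples 12.94, 13.04, 12.89 and 12.95. Its groups overlapped fully, with a difference of −0.01 and an interval from −0.14 to 0.11. Rhoa, the main driver of stress fibres, differed by −0.11 (interval −0.23 to 0.02). Effectors of these GTPases had small differences: 0.15 for Cdc42ep3, which binds Cdc42 and septins, 0.07 for the kinase Rock1, which acts on myosin, −0.08 for the scaffold Iqgap1, and −0.13 for Limk1, the kinase that inactivates cofilin. On the probe sets used, all 4 had an unadjusted p above 0.05. Dimmer probe sets of Iqgap1 above the filter differed by −0.16, −0.14 and −0.37, all with overlap. The last had an unadjusted p of 0.0293 in a limma fit over single probe sets. With probe sets averaged per gene, Iqgap1 was at an unadjusted p under 0.05.

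Among nucleation and elongation genes, groups were separate for 3 of 12 tested (25.0%, against 8.48% of all genes), namely Enah, Cttn and Wasl, all higher. Of the 12, 9 had a difference below 0, and the median was −0.09. Enah encodes Mena, an Ena/VASP protein that sits at filament tips and lengthens them. Control signals were 8.99, 8.50, 9.18 and 9.15, and E2f3-deleted signals were 9.75, 9.42, 9.83 and 11.01. Replicate H was far above the rest, and replicates A, E and F were also above every control. The difference was 1.05 (SE 0.331, interval 0.28 to 1.81, a 2.06-fold ratio, limma adjusted p = 0.256), and 0.71 without replicate H. A dimmer probe set of Enah differed by 0.86, again without overlap.

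The other Ena/VASP genes were lower in mean. Vasp differed by −0.15 and Evl by −0.18, neither at an unadjusted p under 0.05, and a dimmer Evl probe set had separate groups at −0.23. The change in the Enah to Evl log ratio was 1.22 (SE 0.389, interval 0.27 to 2.18) and that of Enah to Vasp was 1.19 (interval 0.13 to 2.25). Both ratios were higher on every E2f3-deleted array than on any control array.

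Cttn encodes cortactin, which binds the Arp2/3 complex and steadies its branches. Its signals were 10.56, 10.15, 11.03 and 10.97 in controls and 11.27, 11.13, 11.58 and 11.94 in E2f3-deleted macrophages. Replicate H was highest, controls D and G came close to replicate E, and no values overlapped. The difference was 0.80 (SE 0.238, interval 0.25 to 1.35, a 1.74-fold ratio, limma adjusted p = 0.244). A pair of dimmer probe sets above the filter differed by 0.72 and 0.55, both with overlap.

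Wasl encodes N-WASP, the widely expressed switch between Cdc42 and Arp2/3. Controls read 8.50, 8.43, 8.48 and 8.33, and E2f3-deleted samples 8.89, 8.58, 8.66 and 8.90. Controls were tightly grouped, and the values of replicates A and H were the farthest from them. The difference was 0.32 (SE 0.0873, interval 0.12 to 0.52, limma adjusted p = 0.218, the smallest of all members). A second probe set gave 0.28, also without overlap, and a dimmer one 0.26 with overlap. Its blood-cell relative Was, the gene of Wiskott-Aldrich syndrome, differed by −0.23 (interval −0.55 to 0.09), with replicate H at 8.75 and the other E2f3-deleted arrays between 9.25 and 9.41.

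Pfn1 encodes profilin, which feeds actin monomers to formins and Ena/VASP proteins. It read 9.86, 9.98, 9.76 and 9.74 in controls and 9.32, 9.93, 9.46 and 9.20 in E2f3-deleted samples. Replicate E was as high as the controls and the other replicates were lower. The difference was −0.36 (SE 0.151, interval −0.71 to −0.01, limma adjusted p = 0.342). The formin Diaph1 differed by −0.21, with replicate H at 10.56 and all other arrays between 11.09 and 11.29, and its interval ran from −0.54 to 0.12.

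Subunits of the Arp2/3 complex had small differences. Arpc2, with the highest array signal of the class, read 13.96, 13.93, 13.91 and 13.95 in controls and 13.87, 13.91, 13.81 and 13.76 in E2f3-deleted samples. The groups met at control D and replicate E, and the difference was −0.10 (interval −0.22 to 0.02). Arpc5 differed by −0.06, Actr3 by −0.02, and Wasf2, the WAVE protein of macrophages that links Rac to Arp2/3, by −0.08. Of all members, 5 had a mean above log2 13, where array signals can be compressed, and Arpc2, Arpc5 and Actr3 were among them. Other subunits, outside the member list and with lower signals, differed by −0.19 for Arpc4 (interval −0.37 to −0.00074), 0.08 for Arpc1a and −0.01 for Arpc5l. Fmnl1, under the filter, differed by −0.11.

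**Figure D2:**
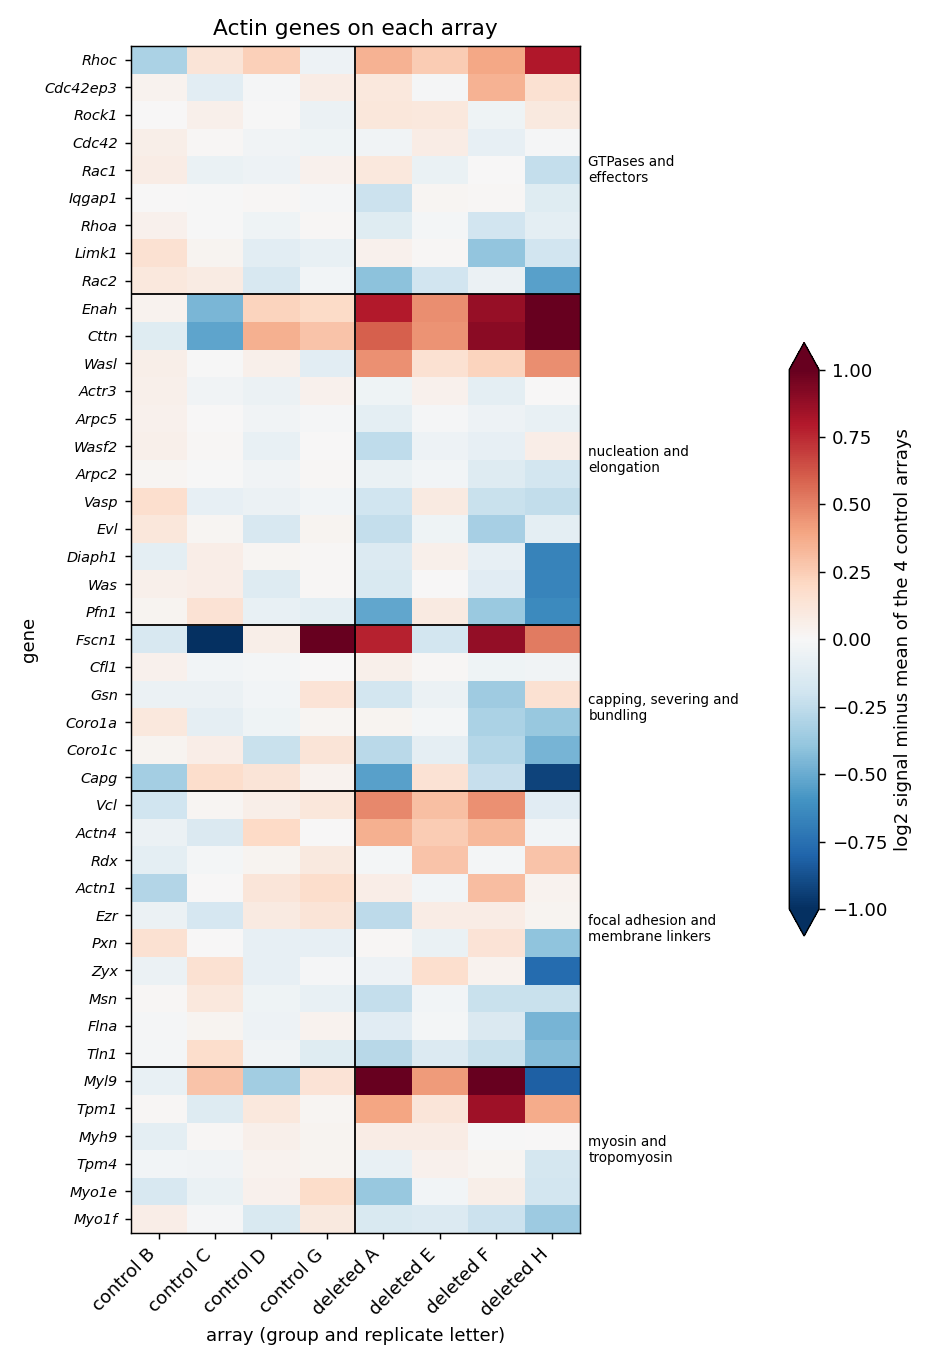
Each of the 43 tested members on each of the 8 arrays, as log2 signal minus the mean of the 4 control arrays, with genes by class and by difference within a class (colour scale ends at −1 and 1). Enah and Cttn are above the control mean on all 4 E2f3-deleted arrays, while Diaph1, Zyx and Was are low mainly on replicate H.

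Capping, severing and bundling genes were lower in 5 of 6 cases, with the lowest class median, −0.14, and no member had separate groups. Coro1c, a coronin that helps dismantle branched networks, alone had an unadjusted p under 0.05. It read 9.69, 9.73, 9.45 and 9.80 in controls and 9.40, 9.58, 9.38 and 9.21 in E2f3-deleted samples. Control D lay within the E2f3-deleted range and the other controls were above it. The difference was −0.28 (SE 0.102, interval −0.51 to −0.04, limma adjusted p = 0.297), and its dimmer probe sets gave −0.19 above the filter, with overlap, and −0.35 and 0.05 under it. The leukocyte coronin Coro1a differed by −0.17.

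Capg, which caps filament ends and is abundant in macrophages, had the lowest difference of all members, −0.39, with a wide interval of −0.91 to 0.12. Controls read 11.38, 11.90, 11.85 and 11.76 and E2f3-deleted samples 11.18, 11.86, 11.49 and 10.79. Replicate H set much of this, and without it the difference was −0.21. Gsn, encoding the severing protein gelsolin, differed by −0.11. Its dimmer probe sets above the filter differed by −0.16, −0.07 and −0.23, all with overlap.

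Fscn1 encodes fascin, which bundles filaments in filopodia and invasive protrusions. Signals were 9.23, 8.36, 9.45 and 10.53 in controls and 10.16, 9.21, 10.27 and 9.91 in E2f3-deleted macrophages. Controls C and G were at opposite ends of all 8 arrays, so the difference of 0.50 had an interval from −0.51 to 1.50 and moved between 0.15 and 0.87 when 1 array was left out. Cfl1, encoding cofilin, the main filament severer, had the highest array signal of the class, at 14.04, 13.98, 13.98 and 14.01 in controls and 14.05, 14.02, 13.96 and 13.97 in E2f3-deleted samples. Its difference was −0.003 (interval −0.11 to 0.11) at the top of the scale, whereas a dimmer probe set gave −0.29 with overlapping groups.

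Focal adhesion and membrane linker genes divided by sign, 6 lower and 4 higher of 10, with a median of −0.05. Tln1 read 10.65, 10.85, 10.64 and 10.55 in controls and 10.40, 10.53, 10.45 and 10.24 in E2f3-deleted samples. Control G and replicate E were nearly level, and no values overlapped. The difference was −0.27 (SE 0.0862, interval −0.47 to −0.07, a 1.20-fold lower signal, limma adjusted p = 0.264). Its dimmer probe sets differed by −0.13 and −0.11, both with overlap.

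Msn encodes moesin, the main ERM protein of leukocytes, which ties the membrane to cortical actin. It read 10.63, 10.73, 10.57 and 10.54 in controls and 10.38, 10.59, 10.40 and 10.39 in E2f3-deleted samples. Replicate E lay among the controls and the other 3 replicates were below them. The difference was −0.18 (SE 0.0696, limma adjusted p = 0.314), and a dimmer probe set had separate groups at −0.45. The related Rdx differed by 0.13 and Ezr by −0.02. The change in the log ratio of Rdx to Msn was 0.31 (SE 0.102, interval 0.06 to 0.56), without overlap.

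Vcl encodes vinculin, which is recruited to talin under tension, and had the highest difference of the class. It read 10.08, 10.30, 10.34 and 10.39 in controls and 10.75, 10.57, 10.74 and 10.16 in E2f3-deleted samples. Replicates A, E and F were above every control and replicate H was near the lowest, so the difference was 0.28 (interval −0.04 to 0.60, limma adjusted p = 0.402) and 0.41 without replicate H. The alpha-actinin Actn4 had the same order of E2f3-deleted arrays, with replicate H at 11.88 and A, E and F from 12.16 to 12.26 against controls of 11.76 to 12.11. Its difference was 0.23 (interval −0.02 to 0.47), and that of Actn1 was 0.10.

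Pxn, encoding the adhesion scaffold paxillin, had the highest array signal of the class. It read 12.37, 12.22, 12.13 and 12.14 in controls and 12.22, 12.15, 12.35 and 11.81 in E2f3-deleted samples, a difference of −0.08 (interval −0.36 to 0.19). Only replicate H was outside the control range. Zyx, encoding the tension sensor zyxin, differed by −0.15, with replicate H at 9.13 and every other array between 9.82 and 10.07. The cross-linker filamin A, Flna, differed by −0.19, with replicate H again lowest at 9.78.

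Myosin and tropomyosin genes had a median of −0.004, with 3 higher and 3 lower of 6. Tpm1, whose tropomyosins coat and protect stable filaments, read 9.80, 9.66, 9.90 and 9.81 in controls and 10.18, 9.91, 10.64 and 10.16 in E2f3-deleted samples. Replicate F was highest and replicate E only just cleared control D. The difference was 0.43 (SE 0.143, interval 0.10 to 0.76, a 1.35-fold ratio, limma adjusted p = 0.272). A dimmer probe set gave 0.36, with overlap, and another, near the filter, −0.13. Tpm4 differed by −0.05, and the Tpm1 to Tpm4 log ratio was higher by 0.48 (interval 0.09 to 0.87), without overlap.

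Myo1f is a class I myosin of leukocytes that links membrane to actin. It read 10.25, 10.17, 10.02 and 10.27 in controls and 10.03, 10.04, 9.96 and 9.82 in E2f3-deleted samples. Control D lay at the level of replicates A and E, and the other controls were above all E2f3-deleted values. The difference was −0.22 (SE 0.0776, interval −0.39 to −0.04, limma adjusted p = 0.290). Its relative Myo1e differed by −0.13, and dimmer Myo1e probe sets above the filter by −0.27, −0.18 and −0.04, all with overlap. With probe sets averaged per gene, Myo1e was at an unadjusted p under 0.05. Myh9, the non-muscle myosin II heavy chain, had the highest array signal of the class, at 13.28, 13.39, 13.43 and 13.41 in controls and 13.45, 13.46, 13.38 and 13.38 in E2f3-deleted samples. Its difference was 0.04 (interval −0.09 to 0.16), and its dimmer probe sets above the filter were below 0.

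Myl9, a myosin regulatory light chain that is abundant in smooth muscle, was the most variable member. Controls read 8.38, 8.74, 8.10 and 8.59 and E2f3-deleted samples 10.30, 8.87, 10.24 and 7.63. Replicates A and F were far above the controls, replicate E was just above, and replicate H was the lowest of all 8 arrays. The difference was 0.81, with an SD of 1.27 in E2f3-deleted samples against 0.276 in controls and an interval from −0.48 to 2.10. Markers of smooth muscle and pericytes were also high on A and F and low on H, with a median of 1.18 and 1.34 above the control mean on A and F, 0.26 on E and −0.35 on H. With that median as a covariate, a fit added after seeing the data, the Myl9 difference was −0.24. The part of smooth muscle cells or pericytes in the Myl9 values was not tested.

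**Figure D3:**
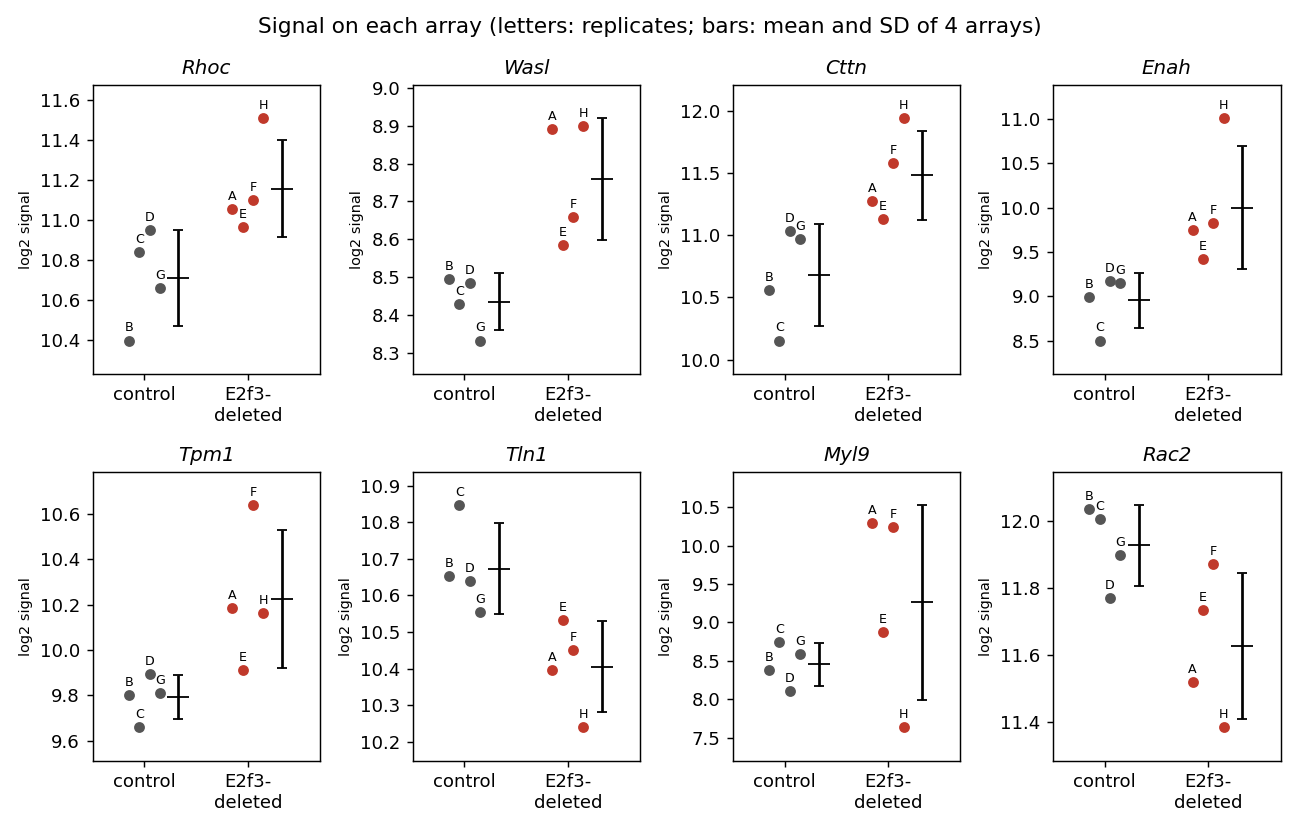
Log2 signal of 8 members on each array, with letters naming replicates and bars giving the mean and SD of the 4 arrays of a group. Rhoc, Wasl, Cttn, Enah, Tpm1 and Tln1 have separate groups, Rac2 overlaps through replicate F, and Myl9 is high on replicates A and F and low on H.

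Vcl and Myl9 were also among the 3 members, with Myo1e, whose windows held a CArG box, the site of serum response factor, which controls many actin genes. Searched on both strands, it was in 6.82% of member windows and 1.63% of all windows, the latter not limited to tested genes. The stretches around it in Vcl and Myl9 are shown, with capitals for the CArG box only. They were chosen because in both genes replicates A and F were above every control and replicate H was the lowest E2f3-deleted array. Replicate H lay within the control range in Vcl and below it in Myl9. For a gene with several start sites, the first whose window held a CArG box was used.
Vcl (chr14:20929148-20929225, + strand): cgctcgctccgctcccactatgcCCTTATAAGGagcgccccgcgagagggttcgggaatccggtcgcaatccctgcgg
Myl9 (chr2:156775258-156775357, + strand): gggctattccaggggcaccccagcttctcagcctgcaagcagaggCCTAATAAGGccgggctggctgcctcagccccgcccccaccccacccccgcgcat
The box began at −227 from the start site in Vcl and at −161 in Myl9. Myo1e, with the same motif, read 9.91, 10.26, 10.35 and 10.11 on replicates A, E, F and H against controls of 10.13 to 10.48, and so did not have that order of arrays. Actn4, which had the same order of E2f3-deleted arrays as Vcl, had no CArG box in its window. Whether the box bears on these values was not tested.

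To set relatives of a family against each other, 13 pairs of related members were compared as the log ratio within each array. None passed an exact permutation test (70 assignments, two-sided) after Benjamini-Hochberg adjustment over the 13 pairs, with a smallest adjusted p of 0.0929. The raw exact p was 0.0286, the smallest that 4 against 4 arrays can give, for 4 pairs: Enah with Vasp, Enah with Evl, Rdx with Msn, and Tpm1 with Tpm4. Rhoa to Rhoc had a ratio change of −0.56 (interval −1.02 to −0.09, exact p = 0.0571), Wasl to Was of 0.56 (interval 0.01 to 1.10, exact p = 0.0571) and Rac1 to Rac2 of 0.25 (interval −0.03 to 0.54, exact p = 0.0857). The coronins, alpha-actinins, class I myosins, Ezr with Msn, Ezr with Rdx, and Vasp with Evl had intervals that included 0.

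Members varied more in E2f3-deleted samples. The SD was larger there than in controls for 37 of 43 members (86.0%), against 67.7% of all genes. The median SD of members was 0.161 in E2f3-deleted samples and 0.0979 in controls, and that of all genes was 0.137 and 0.103. Replicate H was the lowest or highest of the 8 arrays for 24 members (55.8%, against 48.9% of all genes). It was the lowest for 17, including Pfn1, Capg, Diaph1, Zyx, Tln1 and Myl9, and the highest for 7, including Enah, Cttn and Rhoc. Of the members at an unadjusted p under 0.05, the 5 higher ones had medians above the control mean of 0.46 on replicate A, 0.25 on E, 0.85 on F and 0.80 on H, and the 6 lower ones had −0.27, −0.11, −0.22 and −0.45. Replicate E was nearest to the controls in both, and since these genes were chosen by their values this is a description.

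Other actin genes were taken from a list of 104 genes by the same classes, of which 96 were tested. An unadjusted p under 0.05 was found for 32 (33.3%, against 14.2% of all genes), 19 higher and 13 lower, and none passed the adjusted test. Without control replicate B the count was 19 (against 9.24% of all genes), without control replicate C 20 (against 11.1%), and without both arrays of conflicting letters 17 (against 8.61%). The higher genes with the smallest p were Mylk, the myosin light chain kinase (1.23), Parva, an adhesion protein bound to integrin-linked kinase (1.17), Nckap1, a subunit of the WAVE complex (0.98), and Fermt2, the integrin activator kindlin-2 (0.95). The lower ones were Parvg, the blood-cell parvin (−0.36), Wdr1, a helper of cofilin (−0.25), Vav1, a Rac activator of blood cells (−0.23), and Lcp1, the leukocyte plastin (−0.21). The actins Actb and Actg1 had −0.03 and −0.01, with signals of 14.17 to 14.32, at the top of the scale, where a difference could be compressed. Mylk was also on the list of smooth muscle markers.

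After these values were seen, genes of wide tissue expression were set beside their blood-cell relatives. Cttn differed by 0.80 and its blood-cell relative Hcls1 by −0.34, and Wasl by 0.32 and Was by −0.23. Nckap1 differed by 0.98 and Nckap1l by −0.23, Parva by 1.17 and Parvg by −0.36, and Fermt2 by 0.95 and Fermt3 by −0.21. The plastins Pls3 and Lcp1 had 0.88 and −0.21. Other pairs did not have the widely expressed gene above control: Rac1 and Rac2 had −0.05 and −0.30, Coro1c and Coro1a −0.28 and −0.17, and Itgb1 and Itgb2 −0.07 and −0.29. The same held for Pxn and its relative Lpxn, at −0.08 and −0.26, and for Myo1e and Myo1f, at −0.13 and −0.22. Abi1 and its relative Abi3 had −0.05 and −0.22. In each of these other pairs except the coronins, the blood-cell relative had the lower difference. These pairs were picked with their values known, and they carry no test.

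The values of markers of other cell types stand here beside the actin genes, and none of these markers passed the adjusted test. An unadjusted p under 0.05 was found for 14 of 14 endothelial, 4 of 11 smooth muscle and pericyte, and 2 of 13 epithelial markers. It was found for 0 of 12 fibroblast, 2 of 7 mast cell and 0 of 3 neutrophil markers. All of these were higher except 1 smooth muscle and pericyte marker, Cspg4 (−0.54). At that level were also 7 of 11 markers of dividing cells, 4 of 11 macrophage and 1 of 5 lymphocyte markers, all lower. The share of all genes tested was 14.2%. Of 14 tested endothelial markers, 14 were higher, with a median difference of 1.31. Medians on each array are over all measured markers, tested or not: 12 fibroblast, 12 smooth muscle and pericyte, 14 epithelial, 8 mast cell and 11 macrophage. For the 16 measured endothelial markers, the median on replicates A, E, F and H was 1.96, 1.03, 2.01 and 0.02 above the control mean, against −0.41 to 0.44 on control arrays. Their median signal was 5.66 to 6.90 on control arrays and 6.28 to 8.35 on E2f3-deleted arrays. For fibroblast markers it was 8.30 to 9.38 and 8.53 to 10.76, and for smooth muscle and pericyte markers 8.03 to 8.34 and 7.95 to 9.31. Fibroblast markers (11 of 12 higher) had 0.83, −0.45, −0.05 and 1.74, against −0.70 to 0.45 on control arrays. Smooth muscle and pericyte markers (10 of 11 higher) had 1.18, 0.26, 1.34 and −0.35, against −0.13 to 0.12. Epithelial markers (13 of 13 higher) had 0.30, 0.79, 0.80 and −0.23, against −0.44 to 0.78, so no more than the values of E and F were outside the control range, and barely. Mast cell markers (7 of 7 higher) reached 3.59 on replicate H, against −0.34 to 0.22 on control arrays. Macrophage markers were lower for 10 of 11, by −0.19, −0.16, −0.12 and −0.14, against −0.04 to 0.04 on control arrays. Genes of dividing cells were lower for 11 of 11 (median −0.34), lymphocyte markers for 4 of 5 (−0.15), and neutrophil markers were higher for 3 of 3 (0.24). The gene with the highest array signal in each list differed by 1.79 for endothelial Mmrn2, 0.12 for fibroblast Col1a2, 0.51 for smooth muscle Acta2, 0.41 for epithelial Krt8, 1.98 for mast cell Cpa3, −0.15 for lymphocyte Cd2, 0.26 for neutrophil Ltf, −0.24 for Mki67 of dividing cells, and −0.14 for macrophage Lyz2. In bulk RNA, fewer cells of a type and less RNA per cell cannot be told apart.

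The members were also fitted with these marker medians as covariates. With the fibroblast median, 6 members were at an unadjusted p under 0.05 (14.0%, against 11.1% of all genes), namely Cttn, Enah, Tln1, Tpm1, Vcl and Wasl, and the Enah difference was 0.67 and that of Cttn 0.58. With the endothelial median there were 12 (27.9%, against 17.3%), and the differences were 1.60 for Enah, 0.96 for Cttn, 0.39 for Wasl and −0.36 for Tln1, while Vcl had −0.06 and Myl9 −0.42. With the smooth muscle median there were 14 (32.6%, against 20.4%), and Tpm1 and Vcl had 0.305 and 0.0397. No covariate for mast cell, epithelial or dividing cell markers was fitted, and their part in the results was not tested.

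**Figure D4:**
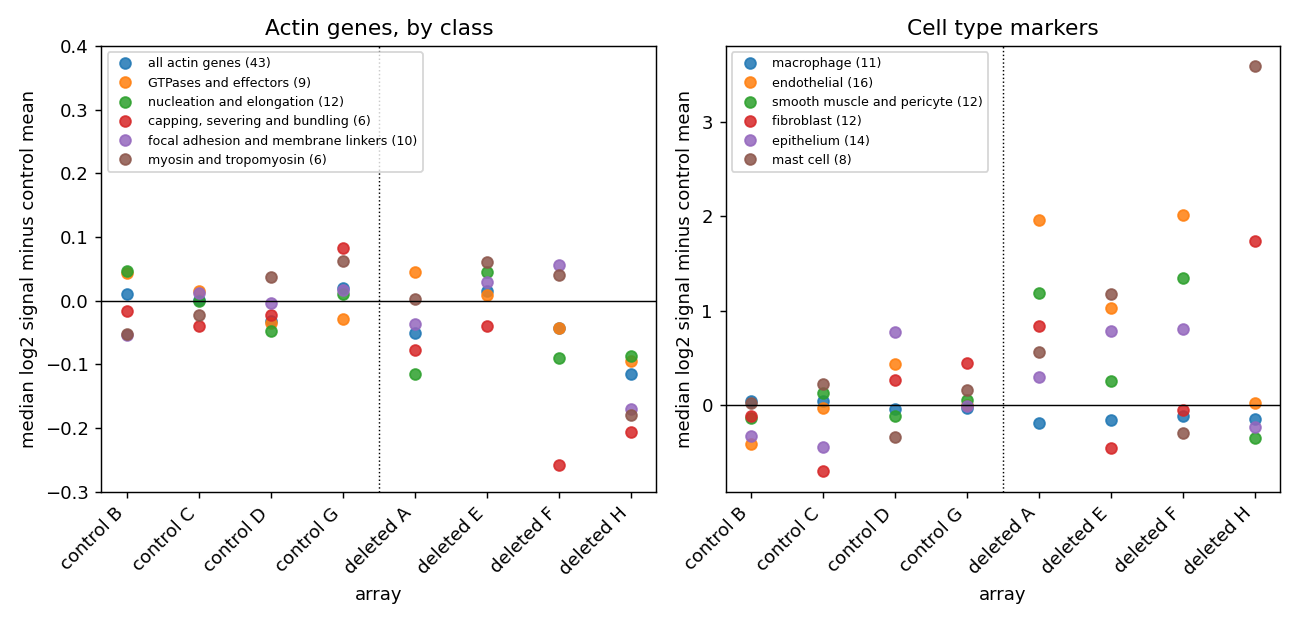
Left, median over the actin genes of each class on each array, as log2 signal minus the mean of the 4 control arrays; right, the same for markers of cell types, on a wider axis, with the number of genes in brackets. Class medians of the actin genes stay between −0.26 and 0.08, while endothelial markers reach 2.01 on replicate F and mast cell markers 3.59 on replicate H.

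Signs of RNA quality also differed somewhat. The 3′ minus 5′ log2 signal of the Actb control probe sets was 0.888 ± 0.0702 in controls and 1.02 ± 0.141 in E2f3-deleted samples (SD, n = 4 each, exact permutation p = 0.171), and that of Gapdh was 1.45 ± 0.0637 and 1.67 ± 0.167 (exact p = 0.0571). The part of this in the actin genes was not tested.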

How the data were processed

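Trizol-extracted total RNA was labelled as biotinylated cRNA for Affymetrix arrays, per the labels' protocols. The authors deposited log2 values for 45101 probe sets and 8 arrays, which they made with RMA, per the submitters' processing notes (version not given in the sources used here). The method brings arrays to similar distributions, which can hide a common shift of most genes. The deposited values were not altered.

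Of the probe sets, 64 were controls, 34945 had 1 gene symbol, 932 several and 9160 none here; only the 34945 were named, of which 34741 were found in a RefSeq table (GRCm38.p6) and 0 needed updating. The brightest probe set by mean stood for each gene, and genes under the 40th percentile of means (log2 5.998) were left out. Of 36 members with several probe sets, 23 had all in 1 direction; counting only those above the filter, 25 of 31, the others being Actn1, Actr3, Cdc42, Myh9, Rock1 and Tpm1. The highest correlation of 2 arrays was 0.996, with at most 0.317% identical values, so each array counted once.

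Groups were compared with limma 3.58.1 under R 4.3.3 (functions lmFit and eBayes, two-sided test, no covariate, Benjamini-Hochberg adjustment over all 10916 genes, threshold 0.05), tested on simulated data. Adjusted p-values of single genes are from this fit. Members given on all 8 arrays were those at an unadjusted p under 0.05 or with groups that do not overlap, and in each class the brightest and those with the lowest and highest difference. Other actin genes named were up to 4 per direction with the smallest p, with Actb and Actg1, and of each marker list the brightest. The members and lists were chosen with earlier results of these data known. Promoters came from RefSeq windows reaching 250 bases before to 50 after a start. Alternatives were averaging the probe sets per gene, no filter, a 60th percentile filter, repeated quantile normalization, array weights, median centring, a robust prior with trend, grouping by scan letter, the endothelial median as covariate, and leaving out each array. Fibroblast and smooth muscle covariates and leaving out both arrays of conflicting letters were added after seeing the data.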

Additional observations from a re-analysis of the deposited data

Results flagged for a closer look

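In 5 of 86 groups of 4 arrays, 1 array lay far from the other 3 by Dixon's 95% criterion; chance gives about 1 in 20. Rock1 read 11.05 on E2f3-deleted replicate F, below 11.18 to 11.20 on the other E2f3-deleted arrays. Vasp read 8.63 on E2f3-deleted replicate E, above 8.29 to 8.34. Msn, encoding moesin, read 10.59 on the same replicate E, above 10.38 to 10.40. Ezr, encoding ezrin, read 9.82 on E2f3-deleted replicate A, below 10.11 to 10.16. Gsn read 10.97 on control replicate G, above 10.78 to 10.81.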

How the results depend on the processing

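Under 20 alternatives to the fit, 0 members passed the adjusted test, including those without E2f3-deleted replicate E or H, in which 60 and 14 of all genes passed. Members at an unadjusted p under 0.05 numbered 11 (all genes 14.2%), and 18 with median centring (28.9%), 6 with the fibroblast median as covariate (11.1%), 5 without both arrays of conflicting letters (8.61%), 1 when grouped by scan letter (4.11%), and 6 to 17 with 1 array left out (9.24% to 17.0%). Members with separate groups numbered 6. With probe sets averaged per gene they numbered 3 of 44, a share below the 8.50% of all genes. They numbered 0 by scan letter and 6 to 15 with 1 array left out (15 without control replicate D or E2f3-deleted replicate E, 10 without H, beside 14.6%, 16.7% and 12.7% of all genes). The median difference was −0.178 with centring, −0.0141 by scan letter, −0.027 with the fibroblast median, and −0.0879 to −0.0341 with 1 array left out, the last without H. Other actin genes at an unadjusted p under 0.05 numbered 2 by scan letter (all genes 4.11%), 17 without both conflicting arrays (8.61%), and 19 to 36 with 1 array left out (9.24% to 17.0%). The count of members below 0 stayed within 25 to 32, while the share of all genes below 0 ran from 55.7% to 79.2%. It was 32 of 43 with median centring (all genes 79.2%) and 28 of 43 with repeated quantile normalization (all genes 65.3%). In these 2 settings the share of members was not above that of all genes. Differences changed sign for 7 of 20 named members. By scan letter they were 0.0575 for Cdc42, 0.0372 for Cfl1, −0.024 for Fscn1, −0.0486 for Vcl, −0.00865 for Myh9 and −0.124 for Myl9. With the endothelial median they were 0.0297 for Cdc42, −0.0629 for Vcl, −0.0143 for Myh9 and −0.421 for Myl9, with the fibroblast median 0.00399 for Cdc42 and 0.00964 for Pxn, and with the smooth muscle median 0.0174 for Cdc42 and −0.235 for Myl9. Cdc42 was 0.00131 with repeated quantile normalization. Without both conflicting arrays Cdc42 was 0.0296 and Cfl1 0.0228. Myh9 was −0.0821 with the mean of its probe sets and −0.0627 with centring. With 1 array left out Cdc42 ranged from −0.0424 to 0.00929, Cfl1 from −0.0195 to 0.0106 and Pxn from −0.156 to 0.0244. The cause of these changes was not tested. No paired analysis was possible because the groups share no replicate letters. The number of arrays limits precision, and signals near the top of the scale may be compressed.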
